A study of Mus musculus with 62 samples.

Results

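The change of the liver transcriptome between 4 and 6 weeks after injection of cachectic melanoma cells was measured here, less the change of mock-injected liver over the same weeks. The quantity is a difference of differences: the mean log2(TPM + 1) at 6 weeks minus that at 4 weeks in the cachectic arm, minus the same step in the mock arm, where TPM is a gene's length-corrected share of all transcripts in a library. It rests on 20 of the 62 libraries of the study, 5 in each of 4 groups, and was computed for the 12160 of 47643 genes that reached at least 1 TPM in at least 5 libraries. The groups come from the labels alone, and genes were filtered on their level and not on the size of the step.

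The study followed the livers of female mice that were 2 months old when they were injected. The arms were CAC, which received melanoma cells that cause cachexia, NCAC, which received melanoma cells that do not, and Con, which was mock injected. Tissue was collected at 2, 4, 6 and 8 weeks, and poly(A) RNA was sequenced from stranded libraries. The sample labels give the strain as C57BL/6J, whereas the design text names NCI Ath/nude mice, and both cannot hold. The 4 groups of the step are CAC and Con livers at 4 and at 6 weeks, alike in sex, starting age and tissue and different in the injected cells, and each library was taken as 1 animal. The NCAC libraries of 4 and 6 weeks, 5 each, were used as a second reference. How the cell lines were derived and how ill each animal was are not given in the labels, so week after injection stands in for stage of disease.

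The liver answers inflammatory cytokines, chiefly interleukin-6 acting through STAT3, with the acute phase response: hepatocytes secrete more serum amyloid A, fibrinogen, lipopolysaccharide-binding protein and protease inhibitors. The same cells oxidize fatty acids, a pathway that the nuclear receptor PPARA controls, and carry most of the body's drug and steroid metabolism. Mouse hepatocytes also secrete major urinary proteins, small lipocalins that carry pheromones into urine and whose genes respond to growth hormone. Cachexia is the wasting of muscle and fat that accompanies some tumours.

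Promoter windows of 3 genes are shown because they head the groups described below: Serpina3n, the acute phase gene that rose in the cachectic step, Cxcl14, the gene with the largest rise, and Mup10, the most abundant of the urinary protein genes that fell. Each runs from 250 bases before to 50 bases after the RefSeq transcription start on build GRCm38.p6, is written 5′ to 3′ on the gene's strand, and is 300 bases long. Serpina3n lies at chr12:104406458-104406757 on the plus strand, Cxcl14 at chr13:56296502-56296801 on the minus strand and Mup10 at chr4:60582106-60582405 on the minus strand. Capitals mark the match of a searched motif.
Serpina3n: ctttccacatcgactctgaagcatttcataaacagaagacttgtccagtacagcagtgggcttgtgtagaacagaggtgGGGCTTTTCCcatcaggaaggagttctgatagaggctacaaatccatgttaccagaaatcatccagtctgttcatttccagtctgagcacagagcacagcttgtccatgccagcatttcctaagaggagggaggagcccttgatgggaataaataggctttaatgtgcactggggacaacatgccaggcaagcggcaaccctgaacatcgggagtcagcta
Cxcl14: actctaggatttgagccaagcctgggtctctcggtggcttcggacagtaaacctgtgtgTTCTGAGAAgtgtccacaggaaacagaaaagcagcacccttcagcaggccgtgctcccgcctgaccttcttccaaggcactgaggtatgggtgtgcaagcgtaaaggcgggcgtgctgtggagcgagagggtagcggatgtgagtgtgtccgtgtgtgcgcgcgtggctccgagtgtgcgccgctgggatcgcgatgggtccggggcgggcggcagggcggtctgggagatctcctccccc
Mup10: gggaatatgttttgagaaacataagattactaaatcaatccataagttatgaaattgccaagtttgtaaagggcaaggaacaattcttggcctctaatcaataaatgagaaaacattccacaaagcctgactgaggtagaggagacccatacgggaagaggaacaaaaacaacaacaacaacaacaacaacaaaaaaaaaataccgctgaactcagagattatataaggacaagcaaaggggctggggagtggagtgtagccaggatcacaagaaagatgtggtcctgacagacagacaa
The motifs were searched on both strands as fixed letters: TTCNNNGAA for STAT, GGG and TTTCC set 2 free bases apart for NF-kB, TTACGTAA for bZIP factors, the C/EBP palindrome, GAACA and TGTTC set 3 free bases apart for the glucocorticoid receptor, and TTATGTAA or TTACATAA for the D-box. The Serpina3n window held 1 NF-kB match, which starts 171 bases before the transcription start, and 1.63% of 32851 windows of that length hold one. The Cxcl14 window held 1 STAT match, which starts 191 bases before the start, and 8.3% of windows hold one. The Mup10 window held none of these motifs. The windows of 13 other Mup genes shared 87.4% to 97.0% of their aligned bases with it, but the alignments left out gaps of 8 bases (Mup9 and Mup19) to 270 bases (Mup7), so whole windows were less alike. Of the 14 windows 0 held the STAT letters. These matches are descriptions of sequence and carry no measurement of binding.

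Several libraries stood apart before any test. Hepatocyte markers summed to between 134700 and 192900 TPM in all 20 libraries, so the tissue matched its label. Melanocyte markers summed to 7.774 to 19.14 TPM in CAC at 4 weeks and 8.065 to 15.49 TPM at 6 weeks. In mock liver these sums were 5.562 to 11.92 and 9.018 to 12.53 TPM, and Mlana alone was at 0 in all 20 libraries. For the urinary protein genes replicate 2 of CAC at 4 weeks read like a 6-week library. Its mean log2(TPM + 1) over 18 of them was 3.98. The other 4 livers of its group lay at 6.49 to 7.59, and CAC at 6 weeks at 2.71 to 5.51. This did not hold for every list. Over genes of interleukin-6 and STAT3 signalling its mean was 3.92, below the 4.11 to 4.35 of CAC at 6 weeks. Transcripts of other tissues, taken as at least 100 TPM of the pancreatic gene Ctrb1 or at least 10 TPM of the muscle gene Acta1, marked replicate 1 of CAC at 6 weeks (146.3 and 77.96 TPM), replicate 4 of Con at 6 weeks (174.4 TPM of Ctrb1) and replicate 5 of Con at 6 weeks (485.8 TPM of Acta1). Among NCAC livers of 4 weeks, replicates 3, 4 and 5 passed the same limit (186.6, 806.1 and 104.4 TPM of Ctrb1). This limit did not cover fat. The mean log2(TPM + 1) over 11 adipocyte markers was 3.995 in replicate 2 of CAC at 6 weeks. It was 3.405 and 3.047 in replicates 1 and 5 of Con at 4 weeks and 3.461 in replicate 2 of NCAC at 6 weeks. In CAC at 4 weeks it was 1.704 to 2.26. The setting without transcripts of other tissues kept these livers. Values without the libraries past the Ctrb1 or Acta1 limit are given beside most groups of genes whose counts they moved.

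**Figure D1:**
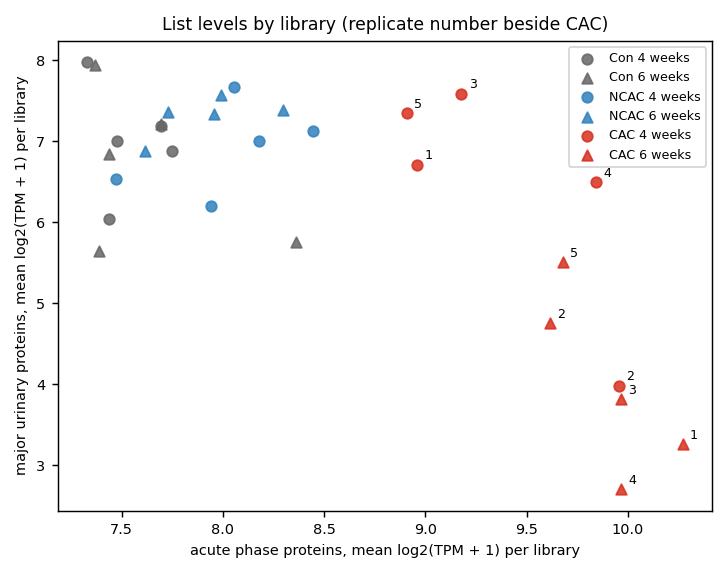
Each point is 1 liver, placed by its mean log2(TPM + 1) over 31 acute phase genes (horizontal axis) and over 18 major urinary protein genes (vertical axis). Colour gives the arm, shape the week, and digits number the CAC replicates. CAC livers of 6 weeks lie between 2.71 and 5.51 on the vertical axis, and replicate 2 of CAC at 4 weeks (3.98) lies among them.

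The step of the cachectic arm could not be told from that of the mock arm at the level of single genes. Of 12160 genes, 0 were higher and 0 were lower at an adjusted p under 0.05 (limma, Benjamini-Hochberg), which is 0%, and the smallest adjusted p was 0.057, shared by Selp, Car1 and Cyp4a31. At an unadjusted p under 0.05 there were 626 genes (5.15%), 250 higher (2.06%) and 376 lower (3.09%). The median standard error of the difference was 0.204 on the log2 scale, its median over all genes was -0.065, and 180 genes differed by at least a factor of 2. Leaving out replicate 2 of CAC at 4 weeks gave 5 genes higher and 9 lower, and leaving out replicate 5 of CAC at 6 weeks gave 2 higher and 3 lower. The balance of directions at an unadjusted p under 0.05, with genes counted anew in each setting, depended on the processing. With median-of-ratios size factors, which moved the median of all genes to -0.0061, 387 were higher and 311 lower. Quantile-normalized values gave 491 and 308, and removal of the 20 most abundant genes gave 180 and 627. Without the livers that held transcripts of other tissues the counts were 348 and 184.

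Within the cachectic arm alone, 62 genes rose (0.51%) and 59 fell (0.485%) between 4 and 6 weeks (limma, adjusted p under 0.05), 0.995% of the genes tested in all, and 19 and 29 of them did so by at least a factor of 2. The mock arm had 0 genes called over the same weeks by limma (0%), with 346 (2.85%) at an unadjusted p under 0.05, and 1 called when 2 covariates for the circadian clock were added. All 121 genes of the cachectic step moved more than they did in mock liver and kept their sign in the difference of differences, 105 of them at an unadjusted p under 0.05, and the median ratio of the mock to the cachectic step was 0.0904. Since the cachectic step is itself part of the difference, these counts describe it and are no separate evidence. In 42 of the 121 the 5 livers of 6 weeks did not overlap the 5 of 4 weeks, and among all genes this held for 102 in the upward direction (0.839%) and 60 in the downward one (0.493%). The count of 121 was fragile: it was 13 without replicate 1 of CAC at 6 weeks, 329 without replicate 2 of CAC at 4 weeks, 18 without the livers with transcripts of other tissues and 0 when only the 10 libraries of the step entered the fit. The genes of this step named below are the 10 largest in each direction among those called whose group mean reached 5 TPM, besides members of the gene lists, and they were chosen after their values were seen.

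The acute phase genes carried a raised level over from 4 weeks, and the further step was small. Of 31 measured members, 28 had a positive and 3 a negative difference of differences, with a median of 0.558 against -0.065 over all genes. At an unadjusted p under 0.05, 7 members were higher and 0 lower, against 2.06% and 3.09% of all genes, and 0 were called. The cachectic minus mock gap was already called in 24 of the 31 at 4 weeks, where 1.3% of all genes were called higher, and in 29 at 6 weeks, where 5% were. The median gap was 0.35 at 2 weeks, 1.45 at 4, 2.00 at 6 and 1.95 at 8 weeks. Without the livers holding transcripts of other tissues the median difference of differences was 0.209, and 2 members were higher and 1 lower at an unadjusted p under 0.05. Of the livers left out there, replicate 1 of CAC and replicates 4 and 5 of Con at 6 weeks belong to the step.

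Serpina3n, a secreted inhibitor of serine proteases, was the 1 acute phase gene of the 31 that rose within the cachectic arm. That count was 8 on quantile-normalized values, 3 with clock covariates, and 0 with median-of-ratios size factors, without a filter on low values, with only the libraries of the step or without the livers with transcripts of other tissues. Of all genes, 62 rose in the main fit (0.51%), 107 on quantile-normalized values and 102 with clock covariates. In the other settings, in the order given, 66, 57, 0 and 11 of all genes rose. The level of Serpina3n was 1131, 2798, 1259.8, 2414 and 918 TPM in CAC at 4 weeks and 6892, 2249.8, 2941, 4021 and 2367 TPM at 6 weeks. Mock livers held 513, 659, 677, 659 and 719 TPM at 4 weeks and 877, 603, 596, 761 and 603 TPM at 6 weeks. Every CAC liver exceeded every mock liver of its week, whereas the 2 CAC groups overlapped through replicates 2 and 4 of 4 weeks. The cachectic step was 1.12 ± 0.29 (standard error, n = 5 and 5; limma adjusted p = 0.0355), and the difference of differences was 1.04 ± 0.41 (limma adjusted p = 0.778).

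The 3 fibrinogen chains and lipopolysaccharide-binding protein, which hands bacterial lipid to immune receptors, leaned the same way without passing the test. Fgb, the beta chain of the clotting protein, read 5283, 8334, 4148, 7259 and 4518 TPM in CAC at 4 weeks and 12095, 9187, 9579, 12153 and 6152 TPM at 6 weeks. In mock liver it read 3652, 2183, 2432, 1873 and 1942 TPM and then 2784, 2302, 2369.8, 1834 and 1917 TPM. The difference of differences was 0.83 ± 0.30 for Fgb and 0.74 ± 0.27 for Fga (limma adjusted p = 0.754 and 0.757). Lbp had a mean of 109.6 ± 38.6 TPM (SD, n = 5) in CAC at 4 weeks and 157 ± 24.9 at 6 weeks, against 38.0 ± 8.68 and 36.5 ± 11.7 in mock liver, a difference of differences of 0.65 ± 0.26 (limma adjusted p = 0.783).

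Serum amyloid A and lipocalin 2, among the strongest induced liver genes of inflammation, showed no step that could be resolved. Saa1 was at 3234, 21193, 5373, 14225 and 2235 TPM in CAC at 4 weeks and at 22924, 8332, 19964, 10072 and 9568 TPM at 6 weeks. Mock livers lay at 109, 51.6, 185, 50.1 and 49.4 TPM and then at 1488, 42.2, 87.9, 41.7 and 48.3 TPM, with replicate 1 of 6 weeks far above the rest. The CAC livers were above every mock liver of their week and overlapped each other, and the difference of differences was 0.57 with a 95% interval from -1.85 to 3.00. For Lcn2, which binds bacterial iron carriers, it was 0.92 ± 0.81. Without the livers with transcripts of other tissues the values turned to -0.42 for Saa1 and -0.077 for Lcn2.

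Upstream regulators gave values of the same order. Socs3, the feedback inhibitor of STAT3 signalling, was at 20.6 to 30.7 TPM in the 5 CAC livers of 4 weeks and at 37.2 to 74.9 TPM in those of 6 weeks, which did not overlap, and its cachectic step of 0.98 ± 0.29 had a limma adjusted p of 0.0815. In mock liver Socs3 was at 2.39 to 5.38 TPM at 4 weeks and at 5.11 to 7.89 TPM at 6 weeks. These mock ranges overlapped, and 0 genes were called in the mock step. The difference of differences of Socs3 was 0.39 ± 0.41. Cebpd, a transcription factor of the acute phase, had a difference of differences of 1.32 ± 0.45 (limma adjusted p = 0.754) and was the 1 member of 23 in the glucocorticoid response list at an unadjusted p under 0.05. Of 19 genes of interleukin-6 and STAT3 signalling, 1, again Cebpd, was higher and 0 lower at that p, with a median of 0.069. Among 48 complement and coagulation genes, 6 were higher and 1 lower, with a median of 0.061, and the 6 include the 3 fibrinogen chains counted above. Of all genes 2.06% were higher and 3.09% lower at that p. Without the livers that held transcripts of other tissues, 1 complement and coagulation gene was higher, and the median of the glucocorticoid list was 0.124 in place of 0.42.

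**Figure D2:**
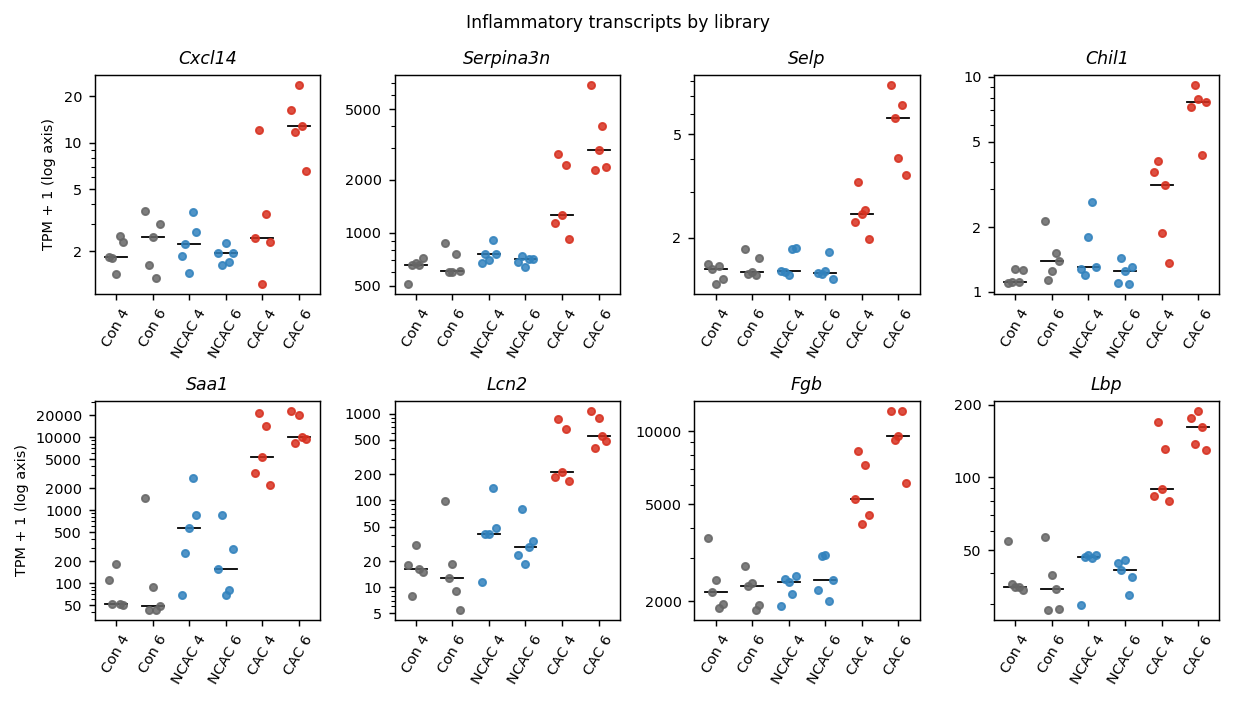
TPM + 1 on a log axis for 8 inflammatory or adhesion genes, 1 point per liver, bars at group medians, for Con, NCAC and CAC at 4 and 6 weeks. Selp and Chil1 show no overlap between CAC livers of 4 and of 6 weeks, while Saa1, Lcn2, Fgb and Lbp overlap between those weeks and are above mock in every CAC liver at 4 weeks.

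Cxcl14, a chemokine of epithelial cells, had the largest rise of the cachectic step. It was at 1.45, 11.1, 0.232, 2.48 and 1.30 TPM in CAC at 4 weeks and at 15.2, 10.8, 22.7, 11.9 and 5.58 TPM at 6 weeks. Mock livers held 0.825, 0.818, 0.422, 1.49 and 1.30 TPM and then 2.62, 0.623, 1.49, 0.348 and 2.00 TPM. Except for replicate 2 of 4 weeks, every CAC liver of 4 weeks lay below every one of 6 weeks. The cachectic step was 2.07 ± 0.36 (limma adjusted p = 0.00115), the difference of differences was 1.85 ± 0.51 (adjusted p = 0.514), and without that liver the latter was 2.34 (adjusted p = 0.0119).

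Selp encodes P-selectin, which endothelium and platelets display to catch leukocytes, and it had one of the 3 smallest p-values of the difference of differences. Its level was 1.29, 2.28, 1.47, 1.54 and 0.967 TPM in CAC at 4 weeks and 6.76, 4.79, 3.05, 5.46 and 2.47 TPM at 6 weeks. Mock livers stayed between 0.327 and 0.586 TPM at 4 weeks and between 0.431 and 0.809 TPM at 6 weeks. No CAC liver of 6 weeks overlapped those of 4 weeks, and each CAC liver was above each mock liver of its week. The difference of differences was 1.00 ± 0.21, with a 95% interval from 0.58 to 1.42 and a limma adjusted p of 0.057, and it was below 0.05 when replicate 2 of CAC at 4 weeks (0.0119), replicate 3 of CAC at 6 weeks (0.0345) or replicate 5 of CAC at 6 weeks (0.00231) was left out. Selp was singled out after its value was seen. At levels this low a difference on log2(TPM + 1) understates the fold change, and read depth is unknown.

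Chil1, a secreted chitinase-like lectin of activated macrophages and neutrophils, was at 2.61, 3.08, 0.885, 2.14 and 0.357 TPM in CAC at 4 weeks and at 6.20, 8.21, 6.86, 3.34 and 6.64 TPM at 6 weeks. All 5 livers of 6 weeks were above all 5 of 4 weeks, and mock livers ranged from 0.101 to 1.12 TPM over both weeks. The cachectic step was 1.44 ± 0.23 (limma adjusted p = 0.000222) and the difference of differences 1.13 ± 0.32 (adjusted p = 0.547). Other rises, among genes that reached a mean of 5 TPM, were those of Mmp7, a matrix metalloproteinase (1.54 ± 0.37), Bmper, a BMP-binding regulator of vessels (1.46 ± 0.32), Csf2rb2, a subunit of cytokine receptors (1.45 ± 0.33), Ctla2a, a cathepsin inhibitor (1.26 ± 0.23), Lect1, an inhibitor of vessel growth (1.22 ± 0.29), Cadm4, a cell adhesion protein (1.21 ± 0.29), and Calml4, a calmodulin-like protein (1.08 ± 0.24). Their adjusted p-values in that step lay between 0.00284 and 0.0262 (limma). Where a group mean of 5 TPM or more was required, the 5 genes with a positive difference of differences and the smallest p were Calml4 (1.55 ± 0.35), C1qtnf5, a secreted C1q-like protein (1.13 ± 0.30), Pkig, an inhibitor of protein kinase A (0.55 ± 0.15), Cxcl14 and Crybb3, a beta crystallin (1.35 ± 0.37), and 0 of them were called.

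The steps of Calml4 had opposite signs in the arms. It was at 3.83, 5.65, 2.94, 2.97 and 3.24 TPM in CAC at 4 weeks and at 12.5, 9.28, 7.07, 11.9 and 5.32 TPM at 6 weeks, whereas mock livers read 3.71, 1.92, 2.68, 3.57 and 3.67 TPM and then 1.40, 2.31, 1.60, 1.72 and 2.76 TPM. The mock step was -0.47 ± 0.24, so its difference of differences was larger than its cachectic step. The limma adjusted p was 0.116, and 0.0176 without replicate 2 of CAC at 4 weeks.

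Markers of other cells were measured beside these genes. The 14 listed neutrophil markers, 6 of which passed the filter, summed to 38.87 to 107.5 TPM in CAC at 4 weeks and 92.27 to 112.9 TPM at 6 weeks, against 5.434 to 32.54 and 9.153 to 27.57 TPM in mock liver. All 6 tested ones had a positive difference of differences, with a median of 0.295, and 0 reached an unadjusted p under 0.05. A marker can pass the filter through CAC livers alone, where these genes were high. The shared sign is therefore a description and no separate evidence. Of 17 markers of the sinusoidal endothelium, the fenestrated lining of liver capillaries, 16 were positive with a median of 0.27, and 0 reached that p in either direction. Their sums were 192.3 to 280.8 TPM in CAC at 4 weeks, 226.8 to 390.1 TPM at 6 weeks, and 146.6 to 289.5 TPM in mock liver over both weeks. Clec4g, a lectin of that endothelium, had a mean of 58.7 ± 17.6 TPM (SD, n = 5) and then 88.4 ± 21.4 TPM in CAC and 38.4 ± 7.22 and 39.4 ± 6.52 TPM in mock liver, a difference of differences of 0.55 ± 0.31. Among 16 stellate cell and fibroblast genes, Timp1, an inhibitor of metalloproteinases, rose in the cachectic step by 1.01 (limma adjusted p = 0.0137). In bulk liver more cells of a type and more RNA per cell cannot be told apart, and the part of these cells in the rises was not tested.

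**Figure D3:**
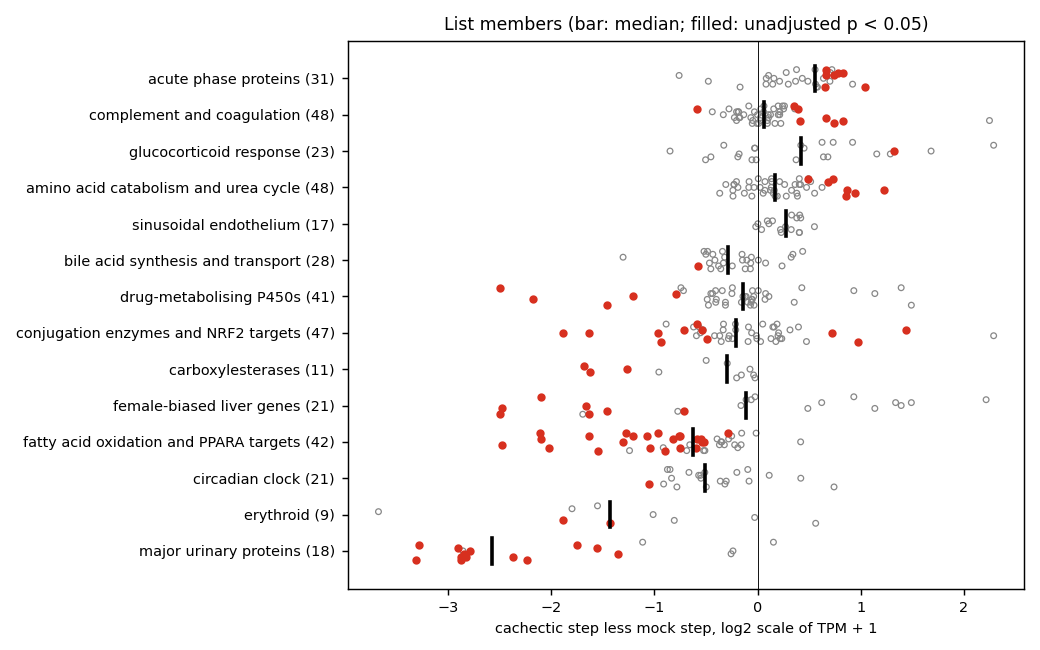
Difference of differences on the log2 scale of TPM + 1 (horizontal axis) for each member of 14 gene lists, with the number of tested members in brackets. Filled points have an unadjusted p under 0.05 and bars mark list medians, from 0.56 for acute phase proteins to -2.58 for major urinary proteins.

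Enzymes of amino acid breakdown and the urea cycle, which turns ammonia into urea, leaned upward in part. Of 48 measured members, 35 were positive with a median of 0.17, 7 were higher and 0 lower at an unadjusted p under 0.05, at which 2.06% of all genes were higher, and 0 were called. Without the livers that held transcripts of other tissues, 3 were higher and 0 passed the test in the cachectic step. The 7 were Got1 (1.23), Sds (0.94), Sdsl (0.87), Ass1 (0.86), Asl (0.73), Arg1 (0.69) and Prodh (0.49). Sdsl, which deaminates serine, rose in the cachectic step by 0.86 ± 0.23 (limma adjusted p = 0.0479), from a mean of 15.4 ± 7.22 TPM (SD, n = 5) to 27.3 ± 4.50 TPM, while mock liver stood at 11.1 ± 1.76 and 11.1 ± 2.25 TPM. Otc, the urea cycle enzyme that makes citrulline, fell in that step by 0.47 (limma adjusted p = 0.0417), so the list did not move as one. For Ass1, which makes argininosuccinate, the step was 0.46 in CAC and -0.40 in mock liver.

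The largest falls of the cachectic step were those of the major urinary protein genes. Of 18 tested members of 21 listed, 17 had a negative difference of differences with a median of -2.58, 13 were lower and 0 higher at an unadjusted p under 0.05, and 0 were called in that difference. Of all genes 3.09% were lower at that unadjusted p. Against 0.485% of all genes, 11 of the 18 fell within the cachectic arm. Together with Mup pseudogenes they made 14 of all 59 genes that fell. Their median gap to mock liver was 0.0044 at 2 weeks, -0.54 at 4, -3.35 at 6 and -4.55 at 8 weeks, and 0, 14 and 15 of the 18 were called lower at 4, 6 and 8 weeks, where 0.609%, 10.3% and 35.3% of all genes were. In the NCAC arm the same difference of differences had a median of 0.71 over these 18 genes. Over all 12160 genes 0 were called in it (limma), with 299 (2.46%) at an unadjusted p under 0.05.

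The genes form a cluster at chr4:59956804-62150863 (build mm10, 22 annotated genes), and they are so alike that reads may be divided among them uncertainly, so single members are less certain than the family. Mup10 was at 15603, 1669, 26223, 17288 and 24469.9 TPM in CAC at 4 weeks and at 1163, 2116, 964, 158 and 5879 TPM at 6 weeks. Mock livers held 18602, 25318, 19227, 26176 and 7063 TPM and then 6019.6, 18164, 20871, 5539 and 21973 TPM. The CAC groups would have been separate but for replicate 2 of 4 weeks, and 1 mock liver of 6 weeks, replicate 4, lay below the highest CAC liver of that week. The cachectic step was -3.40 ± 0.75 (limma adjusted p = 0.0136) and the difference of differences -2.88 ± 1.06, with a 95% interval from -5.00 to -0.76 (adjusted p = 0.757).

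Mup3 separated the arms at 6 weeks, with 44.4, 464, 255, 135 and 494 TPM in CAC and 809, 2703, 1465, 916 and 3805 TPM in mock liver. At 4 weeks it was at 2116, 275, 2493, 1302 and 4271 TPM in CAC and at 2494, 4161, 2809, 2342 and 1559 TPM in mock liver. No CAC liver of 6 weeks reached the lowest mock liver of that week, whereas at 4 weeks the arms overlapped and replicate 2 of CAC lay far below both. Its cachectic step was -2.89 ± 0.62 (limma adjusted p = 0.0131), its mock step -0.65 ± 0.62 and the difference -2.24 ± 0.88 (adjusted p = 0.778). Mup16, Mup9, Mup1, Mup7, Mup2, Mup11 and Mup17 fell in the cachectic step by between 3.09 and 3.67 (limma adjusted p from 0.0131 to 0.0442). Mup20, which encodes the male pheromone darcin, fell by 1.72 ± 0.44 (adjusted p = 0.0355) from a mean of 31.7 ± 14.8 TPM (SD, n = 5) to 9.12 ± 5.42 TPM. Without the livers with transcripts of other tissues the family's median was -1.99, 7 of 18 members reached an unadjusted p under 0.05 and 0 fell by the test in the cachectic step.

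**Figure D4:**
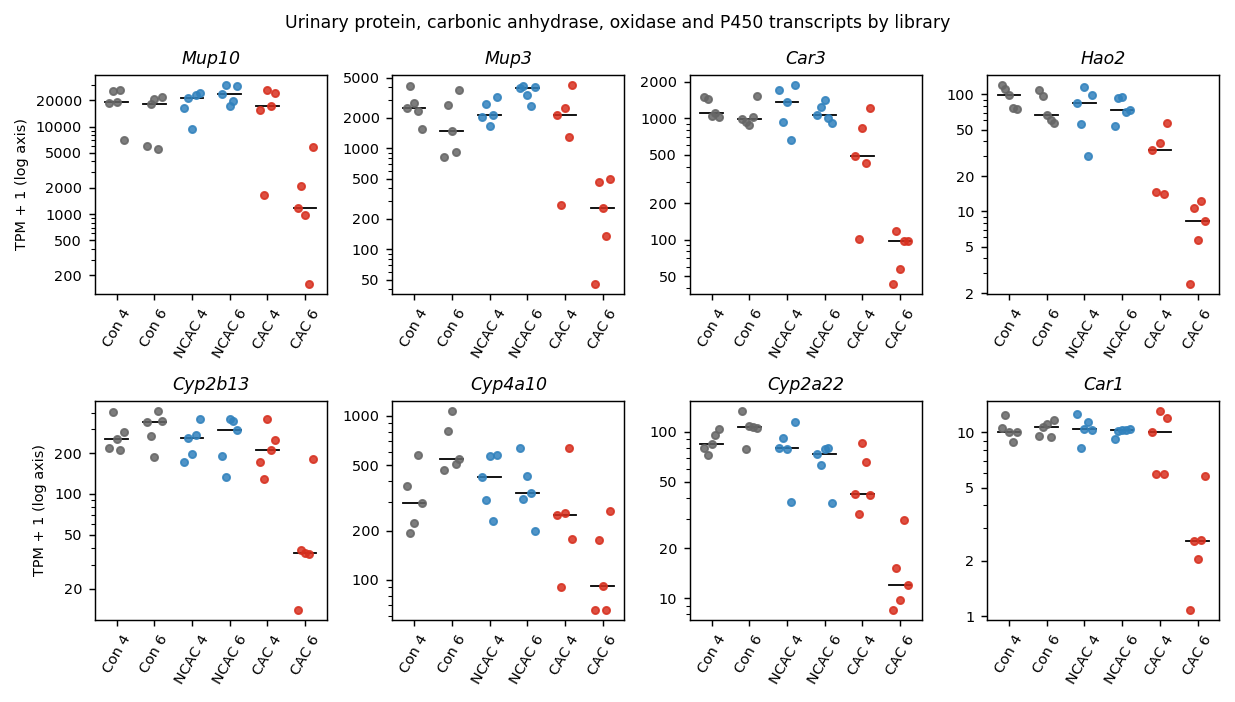
TPM + 1 on a log axis for 8 genes, 1 point per liver, bars at group medians, for Con, NCAC and CAC at 4 and 6 weeks. For Mup10, Mup3 and Car3 replicate 2 of CAC at 4 weeks lies with the livers of 6 weeks, and for Cyp2b13 and Car1 replicate 5 of CAC at 6 weeks lies apart from the other 4.

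Genes of fatty acid oxidation and other PPARA targets nearly all had the same sign. Of 42 measured members, 41 had a negative difference of differences with a median of -0.63, 23 were lower and 0 higher at an unadjusted p under 0.05, at which 3.09% of all genes were lower, and 0 were called. Part of the difference lay in the mock arm, whose median step was 0.16 beside -0.40 in CAC. The median was -0.56 with median-of-ratios size factors, -0.59 on quantile-normalized values and -0.48 without the livers with transcripts of other tissues, when 14 members were lower at that p and 0 fell in the cachectic step. The gap to mock liver had a median of -0.15 at 4 weeks, with 0 members called, -0.78 at 6 weeks, with 29 called lower, and -0.94 at 8 weeks, with 34 called lower. Of all genes 0.609%, 10.3% and 35.3% were called lower at these weeks.

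Cyp4a10, a fatty acid omega-hydroxylase and classical PPARA target, was at 247, 89.6, 254, 639.7 and 178 TPM in CAC at 4 weeks and at 64.9, 174, 90.6, 64.4 and 264 TPM at 6 weeks. Mock livers held 375, 191, 222, 578 and 293 TPM and then 466, 803, 1074, 505 and 549 TPM. At 6 weeks every CAC liver was below every mock liver, and at 4 weeks the arms overlapped. The step was -1.03 ± 0.47 in CAC and 1.07 ± 0.47 in mock liver, and the difference was -2.10 ± 0.67, with a 95% interval from -3.45 to -0.76 (limma adjusted p = 0.697). Cyp4a14, of the same family, had a difference of -1.63 ± 0.81 with steps of 0.047 in CAC and 1.68 in mock liver.

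Cyp4a31, a further member of the family, fell in the cachectic step by 0.64 ± 0.14 (limma adjusted p = 0.0137) and was the 1 gene of the list to do so. It was weakly expressed, at 1.60, 0.807, 2.38, 1.72 and 1.07 TPM in CAC at 4 weeks and 0.508, 0.565, 0.388, 0.367 and 1.14 TPM at 6 weeks. In mock liver it stood at 1.05, 1.66, 0.670, 0.816 and 0.847 TPM and then 1.00, 1.13, 1.79, 1.64 and 1.98 TPM. The CAC groups overlapped because replicate 5 of 6 weeks lay above replicates 2 and 5 of 4 weeks. Its difference of differences was -0.97 ± 0.20 (adjusted p = 0.057), and the adjusted p was 0.00724 without replicate 5 of CAC at 6 weeks, 0.0119 without replicate 2 of CAC at 4 weeks and 0.0267 without replicate 2 of Con at 4 weeks. Other members spanned the pathway: Acot3, a peroxisomal thioesterase (-2.48 ± 0.84), Vnn1, a pantetheinase (-2.11 ± 0.76), Acaa1b, a peroxisomal thiolase (-2.03 ± 0.73), Fabp1, the fatty acid carrier of the cytosol (-1.27 ± 0.59), Ehhadh, the peroxisomal bifunctional enzyme (-1.07 ± 0.39), and Acadm, a mitochondrial dehydrogenase (-0.55 ± 0.17). Acadm was at 134 to 181 TPM in CAC at 4 weeks, 99.1 to 150.0 TPM at 6 weeks and 150.4 to 217 TPM in mock liver over both weeks.

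Retsat, a retinol saturase also known as a PPAR target, was, with Car1, Cyp2a22, Cyp2b13 and Cyp2b9, among the 5 genes with a negative difference of differences and the smallest p where a mean of at least 5 TPM was asked for, a level that Cyp4a31 did not reach. Its difference was -1.63 ± 0.43 (limma adjusted p = 0.432). It was at 90.9, 60.4, 134, 183 and 113 TPM in CAC at 4 weeks and 48.6, 99.2, 40.9, 35.3 and 91.8 TPM at 6 weeks. Mock livers read 95.6, 97.1, 79.9, 208 and 95.6 TPM and then 146, 181, 233, 150.3 and 202 TPM. The CAC and mock steps of Retsat ran opposite ways, at -0.90 ± 0.30 and 0.72 ± 0.30.

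Of 41 cytochrome P450 genes and regulators of drug metabolism, 5 were lower and 0 higher at an unadjusted p under 0.05. Their median was -0.14, and 3.09% of all genes were lower at that p. In the cachectic step, in which 0.485% of all genes fell, 3 of the 41 did: Cyp2b13, Cyp2b9 and Cyp2a22. Cyp2b13 and Cyp2b9, which female mouse liver expresses more than male, fell by 2.33 ± 0.47 and 1.26 ± 0.28 (limma adjusted p = 0.00746 and 0.0136). Cyp2b13 was at 170.3, 128, 355, 212 and 248 TPM in CAC at 4 weeks and 12.9, 37.8, 35.5, 35.2 and 182 TPM at 6 weeks, against 211 to 400.1 TPM and 185 to 411 TPM in mock liver. Replicate 5 of 6 weeks stayed within the range of 4 weeks and the other 4 livers lay below it. The differences of differences were -2.50 ± 0.66 and -1.46 ± 0.39 (adjusted p = 0.432 and 0.444).

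Cyp2a22 was at 41.3, 31.1, 84.5, 64.6 and 40.8 TPM in CAC at 4 weeks and at 7.47, 14.1, 8.78, 28.4 and 11.03 TPM at 6 weeks, with no overlap. Mock livers lay between 71.6 and 103 TPM at 4 weeks and between 78.0 and 133 TPM at 6 weeks. Its cachectic step was -1.90 ± 0.36 (limma adjusted p = 0.00346) and its difference of differences -2.18 ± 0.51 (adjusted p = 0.18). Without the livers that held transcripts of other tissues, the count of P450 genes that fell in the cachectic step was 1. Near-identical copies among the Cyp2 genes make the division of reads between neighbours uncertain.

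Of 21 genes that female liver expresses more than male, 7 were lower and 0 higher at an unadjusted p under 0.05. Their median was -0.11, and 3.09% of all genes were lower at that p. Against 0.485% of all genes, 3 of the 21 fell in the cachectic step. They included Hao2, which oxidizes hydroxy acids in peroxisomes, at 32.5, 13.6, 37.6, 13.2 and 55.8 TPM in CAC at 4 weeks and 1.41, 9.71, 4.75, 11.3 and 7.32 TPM at 6 weeks. Mock livers ranged from 73.8 to 120.4 TPM and then from 56.1 to 108 TPM, so the CAC livers of 6 weeks lay below those of 4 weeks, and these below every mock liver, without overlap. The cachectic step was -1.99 ± 0.45 (limma adjusted p = 0.0146) and the difference -1.67 ± 0.64 (adjusted p = 0.778). The other 2 were Cyp2b13 and Cyp2b9 again, and Acot3, Cyp4a10 and Cyp4a14 stand on both this list and that of fatty acid oxidation. Without the livers that held transcripts of other tissues, the median was -0.465 and 0 members fell in the cachectic step.

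Conjugating enzymes, which attach sulfate, glucuronic acid or glutathione to drugs and steroids, did not move as one. Of 47 measured members, 8 were lower and 3 higher at an unadjusted p under 0.05, with a median of -0.21. Of all genes 3.09% were lower and 2.06% higher at that p. In the cachectic step 4 members fell, against 0.485% of all genes. The falls were 2.02 ± 0.44 for Sult2a8, 1.64 for Ugt1a9, 0.91 ± 0.23 for Ugt3a1 and 0.52 for Ugt2b36 (limma adjusted p from 0.0131 to 0.0403). Sult2a8, a bile acid sulfotransferase, was at 302, 71.0, 391, 252 and 446 TPM in CAC at 4 weeks and 23.4, 88.1, 58.1, 45.6 and 147 TPM at 6 weeks, while mock livers stayed between 341 and 734 TPM over both weeks. Sult1e1, the oestrogen sulfotransferase, had values on the other side, with a difference of differences of 2.29 ± 1.17, but its CAC livers of 4 weeks ran from 0.382 to 83.1 TPM. The carboxylesterases, which hydrolyse esters and triglycerides, were negative in 11 of 11 members with a median of -0.29, and 3 were lower at an unadjusted p under 0.05. Ces3a fell in the cachectic step by 1.89 ± 0.41 (limma adjusted p = 0.0131), from 125 to 816 TPM at 4 weeks to 48.1 to 193 TPM at 6 weeks, and its mock livers lay between 261 and 968 TPM. Without the livers that held transcripts of other tissues, 0 conjugating enzymes and 0 carboxylesterases fell in the cachectic step, and 0 carboxylesterases were lower in the difference of differences at an unadjusted p under 0.05.

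Carbonic anhydrases 1 and 3, which interconvert carbon dioxide and bicarbonate, both fell in the cachectic step. Car1 was at 9.07, 4.94, 12.1, 4.90 and 10.97 TPM in CAC at 4 weeks and 0.0785, 1.55, 1.05, 1.60 and 4.76 TPM at 6 weeks, with no overlap, and mock livers stayed between 7.88 and 11.3 TPM over both weeks. The cachectic step was -1.87 ± 0.28 (limma adjusted p = 6.81e-05) and the difference of differences -1.89 ± 0.39, with a 95% interval from -2.68 to -1.10 (adjusted p = 0.057). Its adjusted p was 0.00231 without replicate 5 of CAC at 6 weeks and 0.0119 without replicate 2 of CAC at 4 weeks. Car1 is also an erythrocyte gene, and the 9 tested erythroid genes had a median difference of differences of -1.43. At an unadjusted p under 0.05, where 3.09% of all genes were lower, 2 of the 9 were lower. These were Car1 and Alas2, the haem synthesis enzyme of red cells. Without the livers that held transcripts of other tissues the erythroid median was -1.09, and 1 of the 9 was lower at that p. Erythroid markers summed to 1477 to 7235 TPM in CAC at 4 weeks, 329.5 to 3043 TPM at 6 weeks and 851.2 to 2492 TPM in mock liver over both weeks, and the part of blood in the fall of Car1 was not tested. Car3 was at 489.9, 101, 827, 426 and 1209 TPM in CAC at 4 weeks and 42.3, 117, 56.2, 95.8 and 97.5 TPM at 6 weeks, against 1022 to 1508 TPM and 875 to 1521 TPM in mock liver. Its cachectic step was -2.58 ± 0.62 (limma adjusted p = 0.0226) and the difference -2.37 ± 0.87 (adjusted p = 0.757).

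Differences for other liver functions ranged from near 0 to a median of -0.51 for clock genes. Alb, the gene of serum albumin, had a difference of differences of 0.074 with a 95% interval from -0.24 to 0.39, Igf1, the growth hormone mediator, -0.16 with an interval from -0.53 to 0.21, and Pck1, which controls gluconeogenesis, -0.18 with an interval from -0.99 to 0.64. Of 75 respiratory chain genes 2 were higher and 0 lower at an unadjusted p under 0.05, with a median of 0.036, and of 33 proteasome genes 0 in either direction, with a median of 0.054. Of all genes 2.06% were higher and 3.09% lower at that p. Interferon-stimulated genes were negative in 35 of 38 members with a median of -0.28, and the mock step had a median of 0.31 in them beside -0.022 in CAC. Clock genes were negative in 18 of 21 members with a median of -0.51, 1 of them at an unadjusted p under 0.05, and replicate 3 of CAC at 6 weeks was far below its group for Dbp (2.84 TPM against 45.6 to 92.0). Without the livers that held transcripts of other tissues the clock median was -0.43, with 0 members lower at that p. Of all 55 lists examined, 0 had a member called in the difference of differences and 14 had a member called in the cachectic step alone. That step called 0.995% of all genes, and whether 14 lists is more than this share gives was not tested.

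The step of the non-cachectic arm was a second reference, and this comparison shares its CAC libraries with the one against mock liver. The cachectic step less the non-cachectic step was called in 8 genes (0.0658%; limma, adjusted p under 0.05), 7 higher (0.0576%) and 1 lower (0.00822%), with 1183 genes (9.73%) at an unadjusted p under 0.05. The higher ones were Chil1 (1.79 ± 0.32, adjusted p = 0.00537), Selp (1.18 ± 0.21, adjusted p = 0.00537), Adm, the vasodilator adrenomedullin (1.19 ± 0.23, adjusted p = 0.0108), its receptor partner Ramp2 (1.08 ± 0.24), Cxcl14 (2.32 ± 0.51), Ctla2a (1.54 ± 0.33) and Ecscr, an endothelial surface protein (1.04 ± 0.23), the last 4 at an adjusted p of 0.0493. The lower one was Car1 (-1.81 ± 0.39, adjusted p = 0.0493). The non-cachectic step less the mock step was called in 0 genes (0%; limma), with 299 (2.46%) at an unadjusted p under 0.05. Among the settings tried the count of 8 ranged from 0, when only the libraries of the contrast entered the fit, to 59, without replicate 2 of CAC at 4 weeks.

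Endothelial genes were among those 8, and their values could be followed by liver. Adm, singled out after its value was seen, was at 1.10, 2.47, 1.44, 1.25 and 0.878 TPM in CAC at 4 weeks and 4.84, 3.50, 3.88, 2.97 and 2.36 TPM at 6 weeks, and NCAC livers held 0.857, 1.19, 0.493, 2.06 and 0.945 TPM and then 0.753, 0.970, 0.522, 0.826 and 0.386 TPM. Ramp2 was at 2.28 to 3.96 TPM in CAC at 4 weeks and 4.12 to 7.36 TPM at 6 weeks without overlap, and at 2.86 to 6.04 and 1.82 to 2.91 TPM in NCAC. Ecscr was at 2.01 to 4.72 TPM and then at 5.39 to 6.75 TPM in CAC, also without overlap, and at 1.75 to 4.55 and 1.49 to 3.29 TPM in NCAC. In NCAC at 4 weeks these 3 genes were highest in replicate 4. Replicates 3, 4 and 5 of that group held 186.6, 806.1 and 104.4 TPM of Ctrb1. The call is lost in all 8 genes without the livers that held transcripts of other tissues. That setting drops these 3 of the 5 NCAC livers of 4 weeks. Whether the loss came from those transcripts or from the smaller group was not tested.

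The CAC and Con livers of 8 weeks entered no group mean of the step and show where its genes stood later. They did enter the estimate of spread that all groups share. The counts called at 8 weeks are therefore not independent of which genes were called in the step. Of the 62 genes that rose between 4 and 6 weeks, 61 were higher in CAC than in mock liver at 8 weeks (98.4%) and 49 were called higher (79%), against 23% positive and 5.87% called higher among all genes. Of the 59 that fell, 56 were lower at 8 weeks (94.9%) and 53 were called lower (89.8%), against 77% negative and 35.3% called lower among all genes. Of the 250 genes higher at an unadjusted p in the difference of differences 183 were positive at 8 weeks (73.2%), and of the 376 lower ones 334 were negative (88.8%). Some genes of the step were not far from mock liver at 8 weeks: Ramp2 had a gap of 0.71 at 6 and 0.10 at 8 weeks, and Pkig had gaps of 0.53 and 0.11. Whether the gap narrowed between 6 and 8 weeks was not tested.

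**Figure D5:**
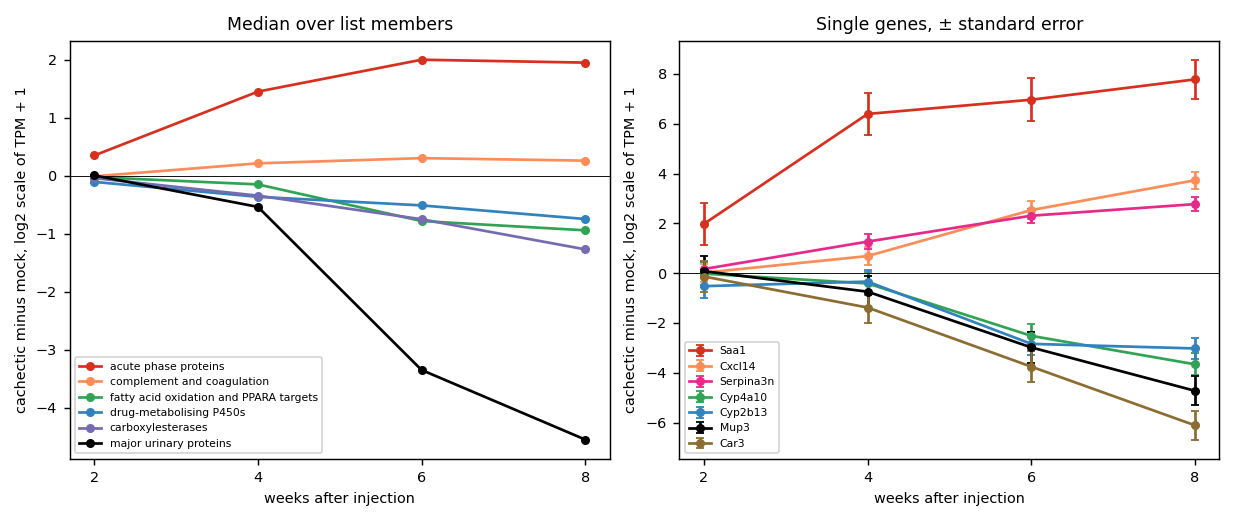
Cachectic minus mock level on the log2 scale of TPM + 1 at 2, 4, 6 and 8 weeks, as medians over the members of 6 gene lists (left) and for 7 single genes with standard errors (right). The median of major urinary proteins goes from -0.54 at 4 weeks to -3.35 at 6 weeks, while that of acute phase proteins goes from 1.45 to 2.00.

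The gap between CAC and mock liver was called in 158 genes higher and 74 lower at 4 weeks (1.91% in all) and in 608 higher and 1254 lower at 6 weeks (15.3%). That more genes passed at 6 than at 4 weeks is not a test of the step. The difference between the 2 gaps is the difference of differences reported above, in which 0 genes were called.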

How the data were processed

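Poly(A) RNA of mouse liver was extracted with Trizol and sequenced from stranded libraries, per the labels' protocols. The deposited table, made by the authors, gives TPM, the length-corrected share of all transcripts, per gene and library, aligned to build mm10 per the submitters' processing notes. The aligner, the counting program and the depth of reading are not stated in the labels, so no counting interval could be computed, and reads of near-identical genes (Mup, Cyp2b, Cyp4a, Saa) may be divided uncertainly. The labels' protocol also mentions LLC cells at 3 weeks, which matches no library used here.

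Values were taken as log2(TPM + 1), a scale that understates the change of low genes. A gene was kept where 5 or more libraries held 1 TPM or more of it. Means of all 12 groups (62 libraries, 50 residual degrees of freedom) were fitted with limma 3.58.1 (eBayes with trend, R 4.3.3), contrasts were computed from them, and p-values were adjusted by Benjamini-Hochberg over all 12160 genes, with 0.05 as the threshold and no minimum fold. Standard errors and 95% intervals are from this fit, and p-values measure the spread between libraries, each taken as 1 animal. The procedure was tested on simulated data. Alternatives changed the pseudocount (0.1), the filter (none, or a mean of at least 5 TPM), the scaling (median-of-ratios, quantile, or the 20 highest genes removed) and the moderation (robust). Others fitted only the libraries of a contrast, added a replicate block or 2 clock covariates, left out 12 libraries with transcripts of other tissues, or left out each library in turn.

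The members and gene lists were chosen with earlier results of these data known. Named genes had a mean of at least 5 TPM in 1 of the 4 groups or more, kept their sign when any library was left out and had no predicted or clone name. They are the 15 largest called each way, or, where fewer than 5 pass, the 5 with the smallest p each way, the 5 each way of the other step comparisons, and, without these limits, 2 to 4 members of each described list with the smallest p and a fixed set of liver genes. The 10 largest each way in the cachectic step alone (same limits), Selp and Adm were added after their values were seen. Promoter windows are from RefSeq (GRCm38.p6), and positions were matched by symbol to GENCODE vM21 for 103 of 104 named genes. Figures were drawn with matplotlib 3.10.9.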

Additional observations from a re-analysis of the deposited data

Results flagged for a closer look

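Some livers lay far from the other 4 of their group for a named gene, by Dixon's criterion at the 95% level. This held for 26 of 416 groups tested, where chance alone gives about 21. In CAC at 4 weeks, replicate 2 was low for Mup10 (1669 TPM), Mup17 (311 TPM), Mup9 (428 TPM), Cyp2b9 (217 TPM) and Ugt3a1 (23.8 TPM), and replicate 1 was low for Fgf21 (0.218 TPM). In CAC at 6 weeks, replicate 3 stood apart for Angptl4 (23.9 TPM), Arg1 (2296 TPM), Cyp7a1 (9.17 TPM), Dbp (2.84 TPM) and Tef (21.5 TPM), and replicate 5 for Igf1 (205 TPM). In Con at 4 weeks, replicate 1 stood apart for Fga (3089 TPM), Lbp (53.5 TPM), Serpina3n (513 TPM) and Tef (28.8 TPM), replicate 2 for C1qtnf5 (1.01 TPM) and Cyp4a32 (67.1 TPM), replicate 4 for Retsat (208 TPM) and replicate 5 for Mup10 (7063 TPM) and Mup17 (5606 TPM). In Con at 6 weeks, replicate 1 stood apart for Saa1 (1488 TPM) and Saa2 (1539 TPM), replicate 2 for Angptl4 (78.6 TPM), replicate 5 for Car3 (1521 TPM) and replicate 4 for Hamp2, which was listed at 0 there.

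The cachectic and non-cachectic steps differed by the limma test of their difference in 8 genes. On the log2 scale the cachectic step less the non-cachectic step was 2.32 for Cxcl14, 1.79 for Chil1, 1.54 for Ctla2a, 1.19 for Adm, 1.18 for Selp, 1.08 for Ramp2, 1.04 for Ecscr and -1.81 for Car1.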

How the results depend on the processing

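In the difference of differences against mock liver, 0 genes were higher and 0 lower under the settings run, except 2 lower with a pseudocount of 0.1. Leaving out 1 library gave 0 to 5 higher and 0 to 9 lower. In each direction taken alone 17 of the 20 libraries left 0, but not the same 17. Leaving out replicate 3 of CAC at 6 weeks gave 1 higher and 0 lower. Leaving out replicate 2 of Con at 4 weeks gave 0 higher and 1 lower. The 121 genes of the cachectic step alone became 60 with a mean of at least 5 TPM, 191 after quantile normalization, 0 with only the libraries of the contrast, 18 without livers with transcripts of other tissues, 202 with clock covariates, and 13 to 329 without 1 library. The mock step had 1 gene with clock covariates. The 8 genes of the cachectic less the non-cachectic step became 4 with a pseudocount of 0.1, after quantile normalization or with the replicate block, 3 without a filter, after median-of-ratios rescaling, with the 20 highest genes removed or with robust moderation, and 0 with a mean of at least 5 TPM, with only the libraries of the contrast or without livers with transcripts of other tissues. They ranged from 2 to 59 without 1 library. At 8 weeks 5005 genes became 3246 after median-of-ratios rescaling. The causes were not tested.

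Replicate numbers did not pair the samples: 8 of 30 same-numbered pairs correlated above 0.1, and 3 of 20 libraries correlated best with their own number. With the replicate block 0 genes were called against mock liver and 130 in the cachectic step alone.

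Signs turned in few named genes. The difference of differences of Alb was 0 after quantile normalization, and that of Angptl4 was 0.054 with median-of-ratios size factors and 0.061 on quantile-normalized values. Without livers with transcripts of other tissues it was 0.015 for Fgf21, -0.077 for Lcn2, -0.18 for Mt1, -0.0055 for Mt2, -0.47 for Orm2, -0.42 for Saa1 and -0.92 for Saa2. Without 1 library it ranged from -0.24 to 0.24 for Angptl4, -0.96 to 0.12 for Cyp7a1, -1.10 to 0.33 for Dbp, -1.09 to 0.054 for Nr1d1, -0.40 to 0.054 for Pck1 and -0.21 to 1.53 for Saa2. Read depth is unknown, so values under about 1 TPM carry an unknown counting error.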
